A study of Oryza sativa Japonica Group with 22 samples.

Results

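The 78 genes described here were higher in rice seeds that carry a sulfur-rich sunflower albumin than in the parental seeds, and lower again in seeds that carry the albumin together with a bacterial serine acetyltransferase. They were selected on these data from the 38866 genes counted. The lowest level in the SSA libraries had to be at least 1 CPM (anti-strand read counts scaled to a common library size, with TMM factors) and at least 1.3 times the highest level over the 10 libraries of Taipei, SAT and SATxSSA. Of the 97 genes that met this, 11 were left out because the study lists them in its sulfur and chaperone gene sets, and 8 because all SATxSSA libraries lay above all Taipei libraries. Levels in SSA, Taipei, SAT and SATxSSA therefore chose the genes and are given as a description, without a test. CGS and CGSxSSA had no part in the choice, and CGSxSSA against CGS is the only comparison tested.

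All 22 libraries came from milkripe seeds harvested 10 days after flowering, each from 1 panicle. Taipei (n = 4) is the untransformed japonica cultivar Taipei 309. SSA (n = 3) carries HaSSA, a sunflower seed albumin rich in methionine and cysteine, behind a wheat glutenin promoter and with a signal that keeps it in the endoplasmic reticulum (ER). CGS (n = 5) carries AtD-CGS, an Arabidopsis cystathionine gamma-synthase, and SAT (n = 3) carries EcSAT, a serine acetyltransferase of Escherichia coli, both behind a maize ubiquitin promoter and directed to plastids. The double lines CGSxSSA (n = 4) and SATxSSA (n = 3) came from crosses of these lines with SSA. Each single line goes back to 1 chosen transformant, so a line and its insertion cannot be told apart, and each double line combined a pair of segregants whose libraries the labels do not tell apart. In whole seeds, fewer cells of a type and less RNA per cell cannot be told apart either.

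Plants take up sulfate, reduce it and join the sulfide to O-acetylserine (OAS), the product of serine acetyltransferase, to make cysteine. Cystathionine gamma-synthase takes the first step from cysteine towards methionine. In Arabidopsis, a small set of genes, the OAS cluster, rises when sulfur is short and OAS builds up, together with sulfate transporters and reduction enzymes. A protein held in the ER of seed cells can also raise the chaperones and disulfide isomerases of that compartment. The 11 listed genes that met the limits on CPM but were left out were 5 OAS-cluster homologs, the sulfate transporters SULTR1;1 and SULTR4;1, the homocysteine methyltransferase homologs Os03g0221200 and Os10g0422200, the cysteine-forming enzyme OASTL Os12g0625000 and the disulfide isomerase PDIL2-3. The OAS-cluster homolog Os03g0165900, for example, had a mean of 2.10 CPM in Taipei, 314 in SSA, 3.27 in CGS, 198 in CGSxSSA, 0.485 in SAT and 0.371 in SATxSSA. The limit on SATxSSA against Taipei was not applied to these 11. PDIL2-3 had a mean of 334 CPM in SATxSSA, against 114 in Taipei and 569 in SSA, so it was not back at the Taipei level.

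None of the 78 genes had an entry in the reference table used here, so they are given by their RAP identifiers, whose digits after Os give the chromosome and whose last part runs along it. No role is given for them. The CPM is not divided by gene length, so levels are compared between libraries and not between genes. Counts are of uniquely mapped reads, so a gene with a near-identical copy may be undercounted. Gene counts summed to between 29642343 and 41585957 reads per library.

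The mean SSA level was at least 100 CPM for 17 of the 78 genes, between 10 and 100 CPM for 30 and under 10 CPM for 31. The median ratio of the SSA mean to the Taipei mean was 4.19, and the lowest was 1.53 (76 genes with reads in Taipei). Just inside the limit of 1.3, the lowest SSA library and the highest of the other 10 were at 327 and 252 CPM for Os01g0106400 and at 1.16 and 0.889 CPM for Os09g0474400. Just outside it, they were at 180 and 139 CPM for Os02g0200900 and at 16.8 and 13.1 CPM for Os11g0632200. The identifiers fell on all 12 chromosomes, with 13 genes on chromosome 1 and 16 on chromosome 5.

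**Figure D1:**
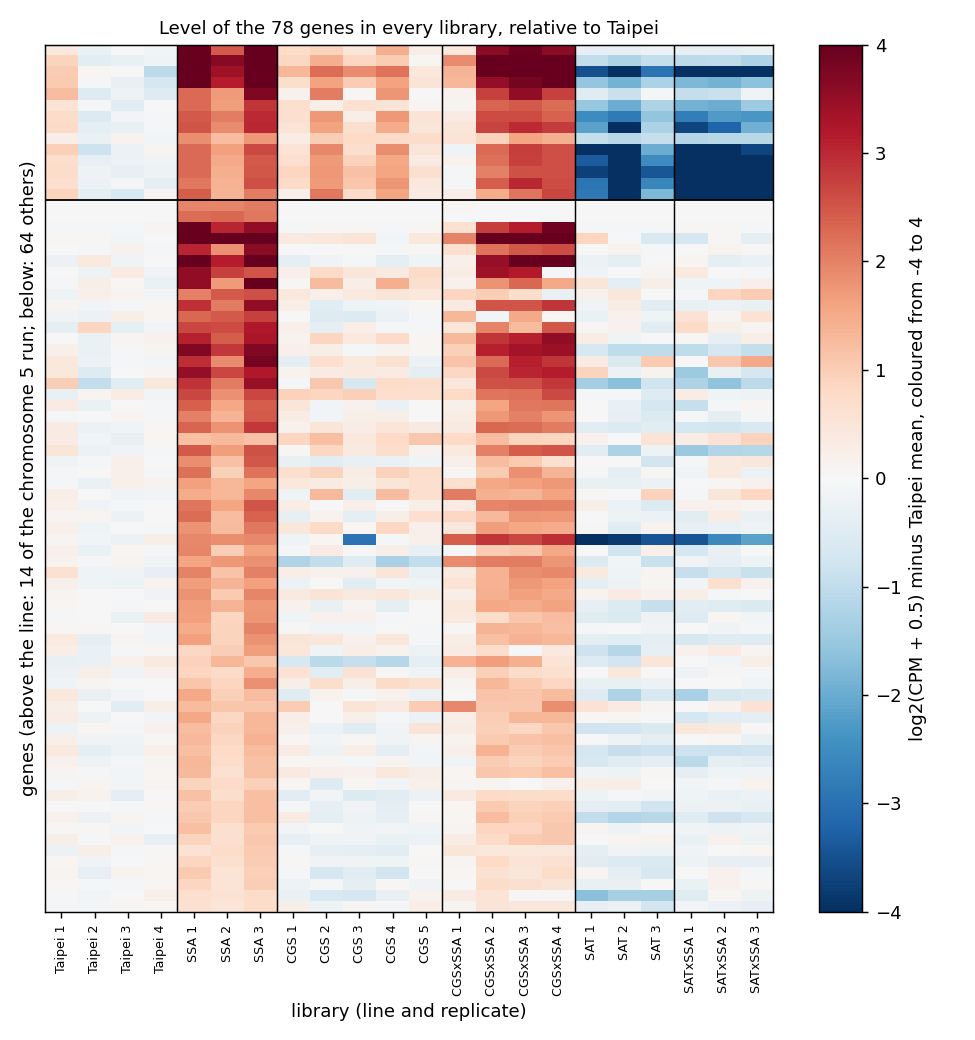
Level of each of the 78 genes (rows) in each of the 22 libraries (columns, grouped by line), as log2(CPM + 0.5) minus the Taipei mean of the same gene. The 14 genes above the line are the chromosome 5 run and are blue (below Taipei) in SAT and SATxSSA, while most of the 64 genes below the line are near white there, and the column of CGSxSSA replicate 1 is paler than those of replicates 2 to 4.

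Of the 16 genes on chromosome 5, 14 lay close together, between Os05g0328333 and Os05g0332000, where the files hold 21 identifiers. This group was noticed after the values were seen. Of the 7 identifiers between them that are not among the 78, 5 had no library above 0.387 CPM. The remaining pair, Os05g0330700 and Os05g0331200, had line means between 1.23 and 2.696 CPM and between 1.39 and 2.26 CPM. The 5 identifiers on either side had SSA to Taipei ratios between 0.166 and 1.17.

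**Figure D2:**
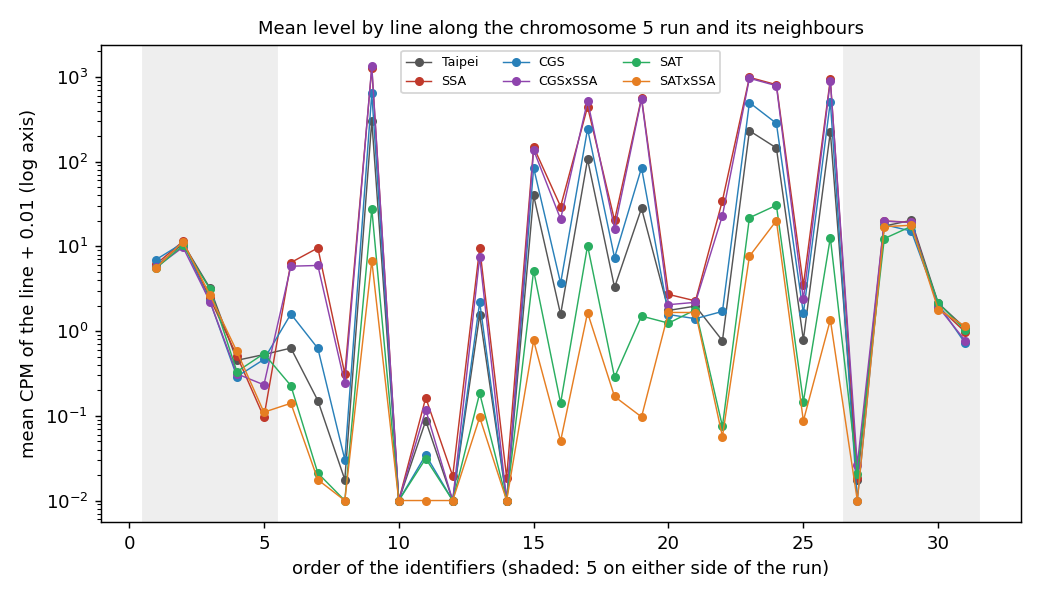
Mean CPM of each line (log axis, 0.01 added) for 31 identifiers in order, with the 5 identifiers on either side of the chromosome 5 run shaded. Inside the run, SSA and CGSxSSA lie highest, then CGS, Taipei, SAT and SATxSSA at most identifiers, while the lines lie close together at most of the shaded identifiers.

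The 14 genes of the run were spread over a wide range between the lines. Their summed level was 788 to 1754 CPM in Taipei (median 899), 3277 to 6814 CPM in SSA (median 5723) and 1421 to 3499 CPM in CGS (median 1979). In SAT it was 15.6, 106 and 210 CPM, and in SATxSSA 18.5, 25.3 and 72.7 CPM. In CGSxSSA it was 1120, 5270, 7650 and 7003 CPM. Neither SAT nor SATxSSA overlapped with Taipei, SAT and SATxSSA overlapped with each other, CGS overlapped with both Taipei and SSA, and CGSxSSA overlapped with SSA apart from replicate 1, which lay within the Taipei range. The sum is weighted towards long and highly expressed genes, but the medians over the 14 genes gave the same order: the SSA mean was 5.89 times, the CGS mean 2.24 times, the SAT mean 9.27% and the SATxSSA mean 4.08% of the Taipei mean. All 14 had a mean below Taipei in SAT, a lower mean still in SATxSSA, and a mean above Taipei in CGS.

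Os05g0328800 was at 468, 233, 248 and 262 CPM in Taipei and at 1389, 836 and 1591 CPM in SSA. In CGS it was at 459, 953, 553, 855 and 367 CPM, and in CGSxSSA at 319, 1327, 1928 and 1743 CPM. In SAT it was at 28.2, 4.16 and 50.7 CPM, and in SATxSSA at 3.75, 3.25 and 13.3 CPM. Replicates 2 to 4 of CGSxSSA lay above all CGS libraries and replicate 1 below all of them. The difference between CGSxSSA and CGS was 1.06 ± 0.49 (log2, SE) with an adjusted p of 0.249.

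Os05g0330600 had a larger ratio of SSA to Taipei, 20.1. It was at 50.2, 26.2, 24.4 and 11.7 CPM in Taipei and at 741, 265 and 690 CPM in SSA, while SATxSSA had 0.120, 0.0268 and 0.114 CPM, which is 0.309% of the Taipei mean. In CGS it was at 62.8, 120, 93.4, 112 and 33.7 CPM, and in CGSxSSA at 64.7, 436, 884 and 814 CPM. CGS and CGSxSSA overlapped through replicate 1 of CGSxSSA, and the log2 difference of 2.704 ± 0.67 did not pass (adjusted p = 0.0549).

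Os05g0331366 was the one gene of the run whose CGSxSSA libraries all lay above all CGS libraries. CGSxSSA had 3.85, 27.0, 29.9 and 31.5 CPM, and CGS had 1.56, 2.71, 1.59, 1.87 and 0.737 CPM. In SSA it was at 37.8, 14.1 and 52.1 CPM and in Taipei at 1.69, 0.366, 0.455 and 0.530 CPM. The log2 difference was 3.78 ± 0.60, just short of the threshold of 0.01 (adjusted p = 0.0102). Os05g0328466 had the largest SSA to Taipei ratio of the run, 67.6, with 13.1, 3.00 and 12.6 CPM in SSA and at most 0.324 CPM in Taipei. In CGSxSSA it was at 0.348, 7.20, 9.03 and 7.15 CPM against 0.263 to 1.18 CPM in CGS (log2 difference 3.28 ± 0.76, adjusted p = 0.0416).

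In every gene of the run the SSA mean lay above CGS, CGS above Taipei, Taipei above SAT and SAT above SATxSSA. For 4 further genes of the run, the SSA means were 985 ± 317 CPM for Os05g0331532, 937 ± 317 for Os05g0332000, 807 ± 305 for Os05g0331800 and 442 ± 171 for Os05g0329700 (SD, n = 3). Their Taipei means were 231 ± 124, 224 ± 87.0, 145 ± 59.0 and 106 ± 37.8 CPM (SD, n = 4). Their SATxSSA means were 7.61, 1.35, 20.1 and 1.64 CPM, so Os05g0331800 kept the largest share of the Taipei mean of these 4, 13.9%.

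The 6 genes of the run not yet described had fewer reads or overlapped more. Os05g0329350 was at 42.0, 161, 63.2, 110 and 46.5 CPM in CGS and at 44.1, 103, 162 and 238 CPM in CGSxSSA, so the ranges overlapped widely (log2 difference 0.70 ± 0.54, adjusted p = 0.505). Os05g0329400 was at 2.16 to 5.20 CPM in CGS and at 4.14, 20.7, 25.9 and 33.1 CPM in CGSxSSA (2.53 ± 0.54, adjusted p = 0.0327). Os05g0329200 and Os05g0330150 had CGSxSSA means of 7.48 ± 3.95 and 16.2 ± 8.26 CPM (SD, n = 4) against 2.18 ± 0.418 and 7.33 ± 3.80 CPM in CGS (n = 5). Os05g0328333 and Os05g0331900, the least of the 6 by SSA level, had adjusted p values of 0.233 and 0.256. In all 6, replicate 1 of CGSxSSA lay within or below the CGS range.

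Within lines, the 14 genes moved together from library to library. Taipei replicate 1 was the highest Taipei library for all 14, SSA replicate 2 the lowest SSA library for all 14, SAT replicate 3 the highest SAT library for all 14, and CGSxSSA replicate 1 the lowest CGSxSSA library for all 14. Among the 64 other genes, SSA replicate 2 was lowest for 54 and CGSxSSA replicate 1 for 52, so both are shared by the whole set, against 32.9% and 23.5% of all genes tested, and the rule used the SSA libraries. Taipei replicate 1 was highest for 35 of the 64 and for 7517 of all 26821 genes tested, and SAT replicate 3 for 24 and 9984. In CGS, replicates 2 and 4 both lay above the other 3 libraries for 12 of the 14, against 21.1% of all genes tested. The same pair was also the most alike of all replicate pairs over the whole transcriptome (chi-square per gene 7.89, next 18.2), and no pair of libraries agreed within sampling noise.

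**Figure D3:**
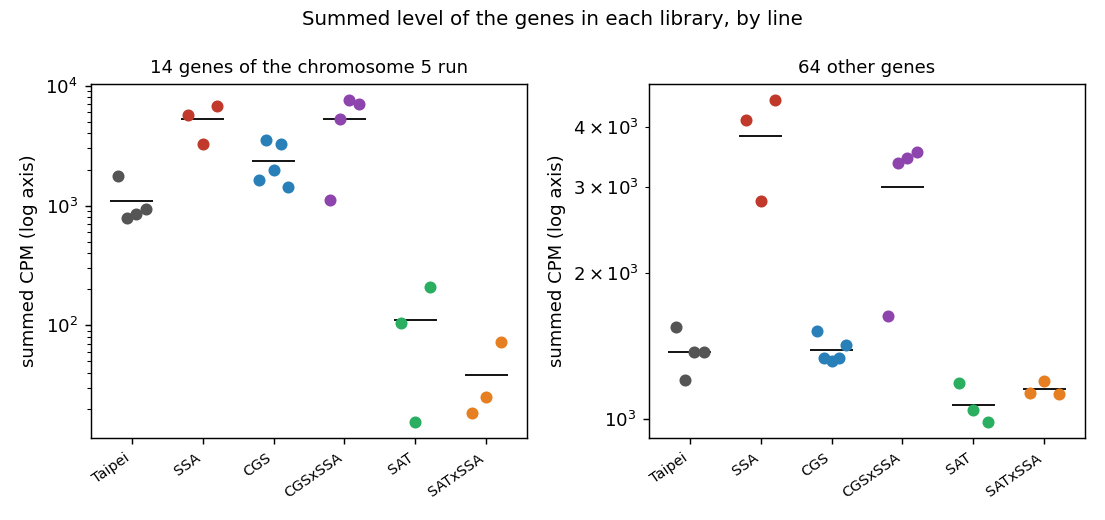
Summed CPM (log axis) of the 14 genes of the chromosome 5 run and of the 64 other genes, with 1 point per library and a bar at the mean of the line. The run spans from 15.6 CPM in SAT to 7650 CPM in CGSxSSA, whereas the 64 other genes lie between 985 and 1544 CPM in Taipei, CGS, SAT and SATxSSA, and CGSxSSA replicate 1 stands below the other 3 CGSxSSA libraries in both.

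The 64 other genes lay near the Taipei level in the lines without raised values. The median over genes was 1.05 times the Taipei mean in CGS, 84.3% of it in SAT and 92.4% of it in SATxSSA, and the SSA mean was 3.55 times the Taipei mean. Their summed level was 1200 to 1544 CPM in Taipei, 1316 to 1520 CPM in CGS, 985 to 1185 CPM in SAT and 1124 to 1197 CPM in SATxSSA. In SSA it was 2805 to 4545 CPM, and in CGSxSSA 1626, 3363, 3454 and 3550 CPM. The SATxSSA mean lay above the Taipei mean for 20 of the 64. Every SAT and SATxSSA library lay below every Taipei library for 23 of the 78 genes, 12 of the run and 11 others (1.67% of all genes tested). The rule used these libraries, so nothing is read from that count.

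CGS was compared with Taipei as well, although Taipei was part of the rule and the values are therefore described only. Every CGS library lay above every Taipei library for 9 of the 78 genes, 1 of them in the run (6.15% of all genes tested). The mean of CGS was above that of Taipei for 50 of 78 genes, namely all 14 of the run and 36 of the 64 others. The share over all genes tested was not counted for this, so nothing is read from it.

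The comparison of CGSxSSA with CGS asks what the albumin transgene goes with in seeds that carry AtD-CGS in both groups. Of the 78 genes, 12 rose at an adjusted p under 0.01 (0.831% of all 26821 genes tested) and 0 fell (0.746% of all genes tested). The 0 that fell is also the count at an unadjusted p under 0.05, where 3084 of all genes tested were lower, and with DESeq2, which called 758 of them lower. At 0.05, 44 of 78 rose (2.48% of all genes tested). The estimate was above 0 for 77 of 78 genes, with a median of 1.17 (log2), against a median of 0.0022 over all genes tested. Every CGSxSSA library lay above every CGS library for 32 of 78 genes (4.71% of all genes tested). All 12 that rose were among the 64 other genes. The run had 0 calls with edgeR's quasi-likelihood test and 5 with DESeq2 (2.35% of all genes tested were called higher with it), and 7 of its 14 genes were higher at an unadjusted p under 0.05 (9.99% of all genes tested). All 78 passed the filter on low counts, which was set over all 22 libraries, SSA included. On the 9 libraries of the comparison alone 75 of the 78 pass it, the exceptions being Os02g0325401, Os09g0463800 and Os11g0437600.

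CGSxSSA replicate 1 stood apart from the other 3 libraries of its line. It was the lowest of the 4 for 66 of the 78 genes (84.6%), against 23.5% of all genes tested. It was at or below the highest CGS library for 42 of the 78 (53.8%), a smaller share than the 77.7% of all genes tested. Its median difference from Taipei over the 64 other genes was 0.30 on the log2(CPM + 0.5) scale, where the other 3 libraries were between 1.297 and 1.34. Over the OAS-cluster homologs it was 0.14 against 0.32 to 0.34, with CGS libraries between -0.00014 and 0.10. Over the ER chaperones of the study it was 0.75 against 0.81 to 0.84, with CGS libraries between -0.04 and 0.13. The summed level of these chaperones was 8299 CPM in replicate 1 against 10036 to 11311 CPM in the other 3. Replicate 1 was the lowest of the 4 for 15 of the 24 chaperones (62.5%). Its unmapped reads were 4.81% against 7.47 to 8.07% in the other 3 and 0.671 to 0.760% in CGS. They were 5.55 to 6.90% in SSA and 2.87 to 4.42% in SATxSSA. The study counted its transgene reads among those unmapped to the rice genome, so these shares include them. What else they hold was not examined. Without CGSxSSA replicate 1, 49 of the 78 genes rose (0.835% of all genes tested), 6 of the run and 43 others, and all 12 called with it were among them. Replicates 2 to 4 lay above every CGS library for 67 of the 78 genes (6.38% of all genes tested). Leaving out any 1 of the other 8 libraries instead left between 5 and 7 genes called (0.425 to 0.671% of all genes tested). The share over all genes tested thus also fell in each of these settings from its 0.831% with all 9 libraries.

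**Figure D4:**
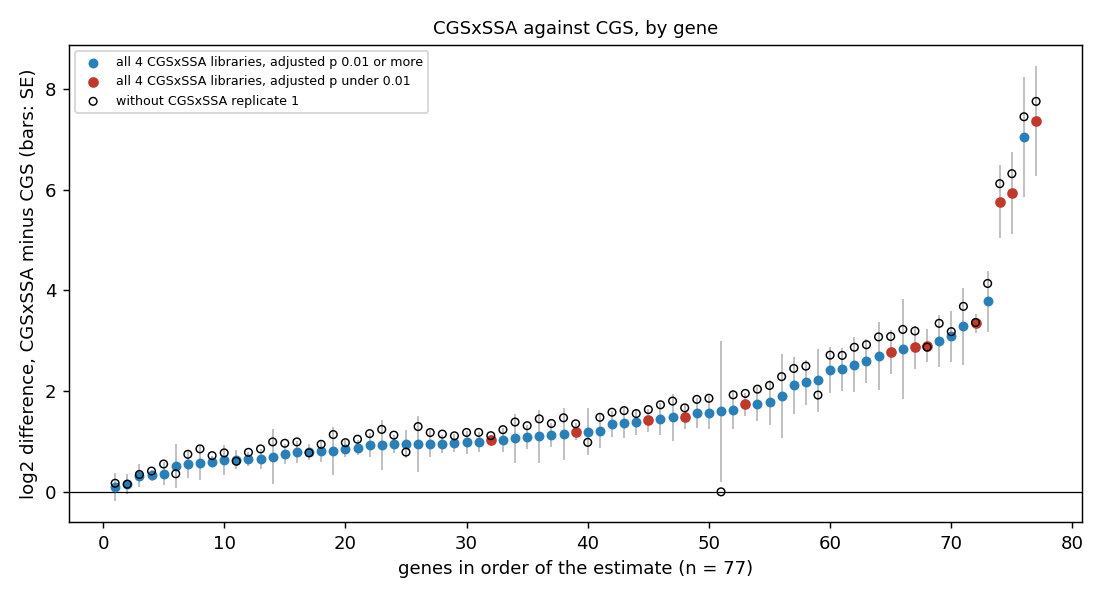
Log2 difference of CGSxSSA minus CGS for 77 of the 78 genes in order of size (Os09g0463800 has no reads in either line), with bars of 1 SE, red points for the 12 genes with an adjusted p under 0.01 and open circles for the estimate without CGSxSSA replicate 1. All 77 filled points lie above 0 and most open circles lie higher than their filled point, and the open circle at 0 is Os02g0325401, whose estimate rests on 1 read in replicate 1.

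The called gene with the smallest adjusted p was Os11g0515700. It was at 11.8, 13.5, 13.0 and 10.7 CPM in CGSxSSA and at 0.944, 1.15, 1.86, 0.855 and 1.18 CPM in CGS. All 4 double-line libraries, replicate 1 included, lay above all CGS libraries, with a log2 difference of 3.35 ± 0.19 (adjusted p = 2.32e-06). In SSA it was at 9.25, 10.5 and 11.1 CPM and in Taipei between 2.42 and 3.15 CPM, so CGS lay below Taipei. Os10g0150400 was similar, at 4.14, 5.12, 4.25 and 2.07 CPM in CGSxSSA and 0.296 to 0.868 CPM in CGS (log2 difference 2.90 ± 0.33, adjusted p = 0.00068).

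Os02g0720400 was at or below 1.43 CPM in every library of Taipei, CGS, SAT and SATxSSA. CGSxSSA had 3.77, 58.2, 69.5 and 75.4 CPM, and CGS had 0.856, 0.916, 1.02, 0.493 and 0.921 CPM. The groups did not overlap, but replicate 1 lay far nearer to CGS than to the other 3 (log2 difference 5.93 ± 0.82, adjusted p = 0.00539). In SSA it was at 112, 47.1 and 133 CPM, which is 171 times the Taipei mean of 0.568 ± 0.0603 CPM (SD, n = 4).

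Os01g0825800 was at 50.6, 227, 264 and 282 CPM in CGSxSSA and between 24.5 and 30.8 CPM in CGS. It rose by 2.87 ± 0.42 on the log2 scale (adjusted p = 0.00731). In SSA it was at 347, 188 and 349 CPM and in Taipei between 21.9 and 29.9 CPM. In SAT it was at 16.4, 12.6 and 12.5 CPM and in SATxSSA at 12.6, 16.0 and 13.2 CPM, all below the Taipei libraries.

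Among genes with hardly any reads outside the high libraries, Os05g0368700 had 317, 134 and 215 reads in SSA and 2 reads in all of Taipei. In CGSxSSA it had 10, 99, 123 and 218 reads against 3 reads over the 5 CGS libraries, a ratio of 193 (exact 95% interval 65.8 to 941, counting error only), and it rose with an adjusted p of 0.00586. Os02g0280850 had 231 reads over CGSxSSA and 5 over CGS, a ratio of 59.6 (25.2 to 185), and rose with an adjusted p of 0.00167. Os11g0437600 was at 0.261, 6.83, 13.3 and 13.6 CPM in CGSxSSA and at most 0.120 CPM in CGS, a ratio of 135 in reads (73.3 to 283), but its adjusted p of 0.0136 missed the threshold. In all 3 genes the CGSxSSA libraries lay above all CGS libraries, and replicate 1 was the lowest.

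The remaining 6 called genes had smaller differences or lower levels, and they are named because they were called. Os07g0516300 was at 23.2, 30.9, 30.8 and 30.4 CPM in CGSxSSA and 12.2 to 16.6 CPM in CGS (log2 difference 1.02 ± 0.11, adjusted p = 0.000459). Os04g0669900 was at 25.1, 54.4, 52.5 and 57.3 CPM against 14.0 to 20.8 CPM (adjusted p = 0.00894). Its neighbour by identifier, Os04g0669800, also among the 78, was at 50.2, 98.2, 88.1 and 92.5 CPM against 37.3 to 47.8 CPM and did not pass (adjusted p = 0.0136). Os03g0244600, Os08g0130000, Os01g0784500 and Os04g0690600 had log2 differences of 1.20, 1.74, 2.78 and 1.48 and adjusted p values of 0.00225, 0.00182, 0.00826 and 0.00502. In each of these 4 the CGSxSSA libraries lay above all CGS libraries.

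Of the named genes with high SSA levels outside the run, 5 did not pass with all libraries, though 3 of them showed no overlap between CGSxSSA and CGS. Os03g0283100 was at 85.8, 267, 282 and 272 CPM in CGSxSSA and 67.5 to 85.0 CPM in CGS, so replicate 1 sat just above the CGS range (log2 difference 1.56 ± 0.30, adjusted p = 0.0196). Without replicate 1 the difference was 1.84 ± 0.09 with an adjusted p of 1.545e-06. Os03g0618300 was at 161, 300, 324 and 333 CPM against 129 to 156 CPM (adjusted p = 0.0147). Os01g0106400 was at 235, 340, 313 and 369 CPM against 134 to 221 CPM (adjusted p = 0.0209). Os01g0916400 and Os08g0205900 overlapped with CGS through replicate 1, at 213 and 137 CPM, and had adjusted p values of 0.0581 and 0.0403.

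**Figure D5:**
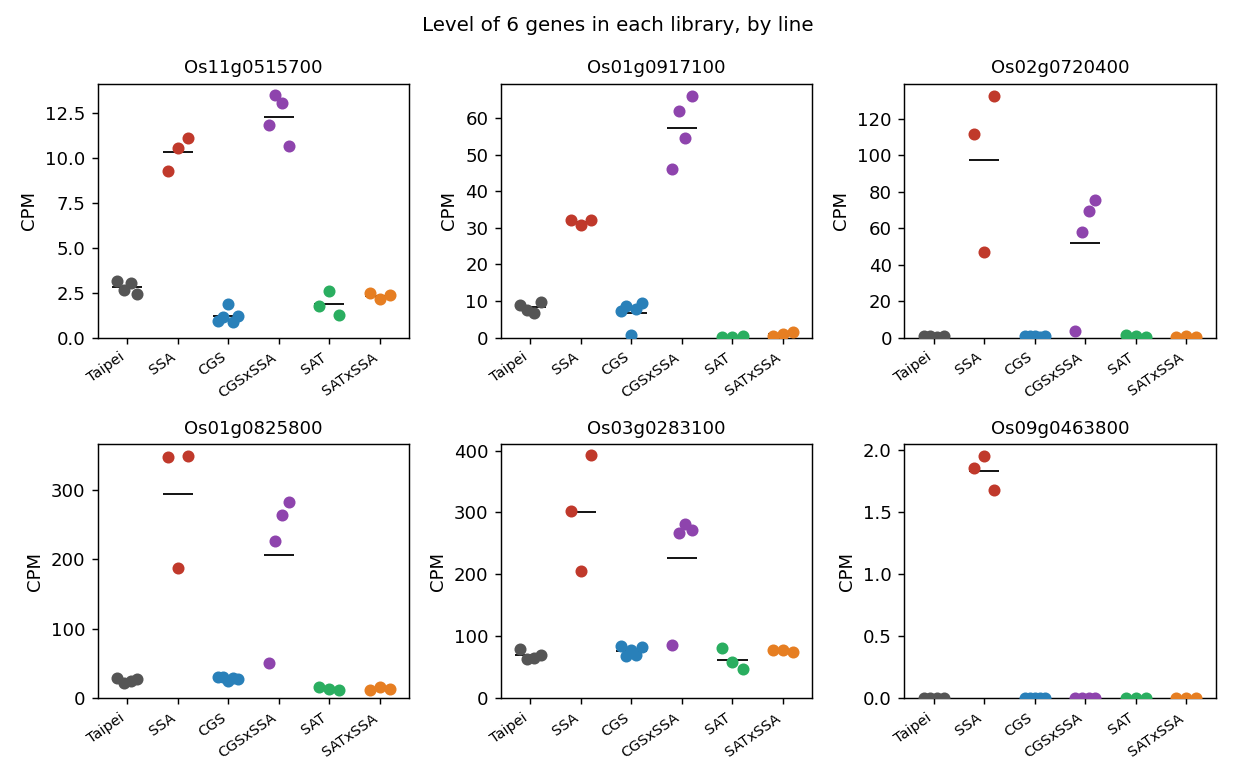
CPM of 6 genes in every library, with 1 point per library in replicate order from left to right and a bar at the mean of the line. CGSxSSA replicate 1 is as high as its line for Os11g0515700, near the CGS level for Os02g0720400, Os01g0825800 and Os03g0283100, and Os09g0463800 has reads only in SSA.

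A further group of genes, most of them at lower levels, reached an adjusted p between 0.01 and 0.05. Os01g0268600 was at 6.63, 24.6, 32.9 and 35.2 CPM in CGSxSSA and between 2.58 and 4.85 CPM in CGS, with no overlap (log2 difference 2.60 ± 0.43, adjusted p = 0.0117). Os02g0598200 was at 1.13, 7.01, 6.97 and 9.02 CPM against 0.475 to 1.06 CPM (adjusted p = 0.0122). Os12g0418600 was at 5.45, 12.3, 22.5 and 19.0 CPM against 1.59 to 3.77 CPM (adjusted p = 0.0130), and was one of the genes with a SATxSSA mean above Taipei, at 217% of it. Os06g0472200 overlapped with CGS through replicate 1, at 33.7, 130, 125 and 112 CPM against 29.7 to 37.1 CPM (adjusted p = 0.0294). Os12g0604600 was one of the 9 genes whose CGS libraries all lay above all Taipei libraries, with 2.00 to 2.60 CPM against 0.811 to 1.49 CPM, and was at 2.32, 6.65, 6.87 and 9.62 CPM in CGSxSSA (adjusted p = 0.0280). These genes were picked after their values were seen.

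A few of the 78 genes departed from the common pattern and were picked out after their values were seen. Os01g0917100 was higher in CGSxSSA (46.0, 61.9, 54.7 and 66.1 CPM) than in SSA (32.1, 30.6 and 32.2 CPM), and replicate 1 did not stand apart. In CGS it was at 7.14, 8.69, 0.629, 7.70 and 9.42 CPM, with replicate 3 far below the others, and the log2 difference of 3.09 ± 0.51 had an adjusted p of 0.0117. It was at 0.0319, 0.111 and 0.299 CPM in SAT and at 0.300, 0.940 and 1.46 CPM in SATxSSA, against 6.80 to 9.78 CPM in Taipei. Os04g0641101 was also low in SAT and SATxSSA, at 13.9% and 12.0% of the Taipei mean.

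Os09g0463800 had 63, 69 and 65 reads in the SSA libraries and 0 in each of the other 19, and Os02g0325401 had 48, 51 and 63 reads in SSA and 1 read elsewhere, in CGSxSSA replicate 1. For this pair, CGSxSSA did not share the SSA level although it carries the same albumin transgene. Os06g0707350 was at 2.45, 3.48 and 3.90 CPM in SSA and at 0.840, 0.949, 0.687 and 0.0988 CPM in CGSxSSA, and Os04g0422300 was split within CGSxSSA, at 0.261, 5.97, 5.01 and 0.0988 CPM. Os09g0474400, Os09g0504000 and Os03g0259500 had the smallest estimates among genes with reads, 0.10, 0.16 and 0.32 on the log2 scale, with adjusted p values of 0.873, 0.684 and 0.46. Over all 78 genes the CGSxSSA mean was a median 76.1% of the SSA mean and lay above it for 7 genes.

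The lists of the study give the setting for the same contrast. Of the 39 tested genes of its sulfur lists, 4 rose and 0 fell in CGSxSSA against CGS (0.831% and 0.746% of all genes tested). By list, 3 of 14 OAS-cluster homologs, 1 of 13 sulfate transporters, 1 of 11 genes of sulfate assimilation and 0 of 4 homocysteine methyltransferases rose. Some genes are in more than 1 list. The 4 fell to 0 when any 1 library other than CGSxSSA replicate 1 was left out (0.425 to 0.671% of all genes tested rose). Without that replicate they became 13 (0.835% of all genes tested). SULTR1;1, a group 1 sulfate transporter, was at a mean of 6.75 ± 4.20 CPM (SD, n = 4) in CGSxSSA and 0.298 ± 0.147 CPM (n = 5) in CGS (adjusted p = 0.0077). Of the 24 ER chaperones, 10 rose and 0 fell (0.831% and 0.746% of all genes tested). The count that rose was 10 or 11 with any 1 library left out, CGSxSSA replicate 1 included. The study kept the ER chaperones and the assimilation genes partly by their level in these same libraries, so these counts are no independent evidence of direction.

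Markers of seed tissues were read beside these genes. Endosperm markers summed to 11898 to 16879 CPM in SSA, 17316 to 19784 CPM in CGSxSSA and 15618 to 18403 CPM in SATxSSA. They summed to 20644 to 27984 CPM in CGS, 21056 to 29784 CPM in SAT and 23485 to 31276 CPM in Taipei. The SSA, CGSxSSA and SATxSSA ranges lay below those of CGS, SAT and Taipei. Of the 8 markers, Os05g0499100 carried much of the lower sum, at 2124 to 5213 CPM in SSA, 5072 to 7263 CPM in CGSxSSA, 9192 to 14877 CPM in CGS and 10640 to 16161 CPM in Taipei. The other 7 summed to 9773 to 11665 CPM in SSA, 10692 to 12695 CPM in CGSxSSA, 11452 to 13733 CPM in CGS and 12211 to 15115 CPM in Taipei, so that CGSxSSA and CGS overlapped. Os05g0499100 was at 9992 to 15111 CPM in SAT and 5448 to 6715 CPM in SATxSSA. There the other 7 summed to 11064 to 14672 CPM in SAT and 9421 to 11687 CPM in SATxSSA. Within CGSxSSA, replicate 1 had 17824 CPM over all 8 markers, inside the range of the other 3. Embryo and aleurone markers were at 3419 to 4651 CPM in SSA, 3723 to 5680 CPM in CGSxSSA and 2905 to 5292 CPM in CGS. They were at 3877 to 5576 CPM in Taipei, 5602 to 5705 CPM in SAT and 2788 to 3792 CPM in SATxSSA, so SAT and SATxSSA did not overlap. Green tissue markers were at 4211 to 4442 CPM in SSA and 3979 to 4561 CPM in CGSxSSA. Both ranges lay below the 4688 to 5546 CPM of CGS, so CGSxSSA and CGS did not overlap for them. In Taipei the green tissue markers were at 3632 to 4056 CPM, in SAT at 3359 to 3653 CPM and in SATxSSA at 3146 to 4466 CPM. The part of tissue make-up in the levels of the 78 genes was not tested. In SATxSSA replicate 1, 20.3% of reads overlapped no gene on the counted strand, against 14.7 to 14.9% in the other SATxSSA libraries. Without this replicate the rule gave 77 genes, 73 of them among the 78.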

How the data were processed

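The deposited files hold raw read counts per gene, made by the authors from strand-specific single-end reads of rRNA-depleted RNA (STAR 2.7.1a, build IRGSP-1.0, uniquely mapped reads only). The anti-strand column was used for all 22 libraries, after rows of reads in no gene were dropped. Of all reads, 11.8 to 20.3% overlapped no gene on the counted strand. Transgenes have no entry in the files used here.

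Counts were scaled with TMM and given as CPM. CGSxSSA was compared with CGS in a fit of these 9 libraries with edgeR 4.0.16 (R 4.3.3), using the quasi-likelihood F test, two-sided, on 26821 genes kept by filterByExpr over the 22 libraries, with Benjamini-Hochberg adjustment over all of them and a threshold of 0.01. The p-values measure the spread between libraries of single panicles within each line. For CGSxSSA this spread includes any difference between its pair of segregants, which the labels do not tell apart. The script was tested on simulated data. DESeq2 1.42.0 and the other alternatives stand in the closing section.

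The members, lists and tests were chosen with earlier results of these data known. Genes named are the 12 with the highest SSA level, the 8 with the largest SSA to Taipei ratio (mean SSA of at least 3 CPM), the 6 largest and 4 smallest differences between CGSxSSA and CGS, and the 2 nearest the limit on either side. The rule was written for genes with an annotation, of which there were 0, and was applied to all 78. Other genes were named after their values were seen. Planned searches of promoters and proteins were not run, since no sequences were used here.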

Additional observations from a re-analysis of the deposited data

Results flagged for a closer look

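Among 25 measures (24 named genes and the summed level of the chromosome 5 run) in the 3 lines with 4 or 5 libraries, 8 values lay far from the rest of their line by Dixon's test, 5 in Taipei, 3 in CGSxSSA and 0 in CGS. Chance alone gives about 1 in 20 for each measure in each line, so some of the 8 would arise without any cause. The genes of the run share their libraries, so these are not separate events. In Taipei, replicate 1 was high for Os05g0328800 (468 CPM, nearest other 262), Os05g0332000 (354 CPM, nearest 186), Os05g0331366 (1.69 CPM, nearest 0.53) and the summed level of the run (1750 CPM, nearest 939). Replicate 4 was the only Taipei library with reads of Os05g0368700 (0.0589 CPM), so it was flagged whatever its value. In CGSxSSA, replicate 1 was low for Os03g0283100 (85.8 CPM, nearest 267) and Os05g0331366 (3.85 CPM, nearest 27.0), and replicate 2 was high for Os09g0474400 (1.23 CPM, nearest 0.851).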

How the results depend on the processing

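The number of the 78 genes called higher in CGSxSSA than in CGS, 12, changed most with the libraries and the test. It was 53 with DESeq2, 46 with all 22 libraries in the fit (whose spread then comes in part from libraries that chose the genes), 27 with library size without TMM (which moved the median of all genes tested to 0.15 on the log2 scale), 44 at a threshold of 0.05, and between 5 and 49 with 1 library left out, the 49 being without CGSxSSA replicate 1. No setting called any of the 78 genes lower. The median log2 difference lay between 1.07 and 1.37 in all settings. The genes with all CGSxSSA libraries above all CGS libraries went from 32 to 67 without CGSxSSA replicate 1. The 4 called sulfur-list genes became 12 with DESeq2, with all 22 libraries and at 0.05, 9 without TMM, 1 without a filter, 0 with the replicate block and between 0 and 13 with 1 library left out. With DESeq2, with all 22 libraries and at 0.05, 1 sulfur-list gene was also called lower. Replicate numbers did not pair the libraries (correlations of deviations 0.16, -0.015, 0.079 and 0.030), and with the replicate block 11 of the 78 genes were called. The log2 difference of Os09g0474400 lay between -0.071 (without CGSxSSA replicate 2) and 0.23 with 1 library left out, and was -0.054 without CGS replicate 3. The rule gave 78 genes, 611 with a factor of 1 and 35 with a factor of 2, and between 77 and 147 with 1 library left out, the 147 being without SSA replicate 2. With library size without TMM it gave 95 genes, 72 of them among the 78. With unstranded counts it gave 77 genes, 66 of them among the 78. Over all genes, 223 were called higher and 200 lower, against 629 and 758 with DESeq2, 403 and 63 without TMM, 490 and 544 with all 22 libraries, and 148 and 71 with the replicate block. With 1 library left out, between 114 and 224 of all genes tested were called higher, the 224 being without CGSxSSA replicate 1. The causes were not tested.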
